A study of Mus musculus with 4 samples.

Results

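The host genes through which the colonic epithelium senses and takes up products of gut bacteria were read for DNA methylation at birth and at weaning age. They are 8 genes of 21418 autosomal protein-coding genes: the receptor genes Ffar2, Ffar3 and Gpbar1, the transporter genes Slc5a8 and Slc16a1, the aryl hydrocarbon receptor gene Ahr with its repressor gene Ahrr, and the histone deacetylase gene Hdac3. The rule lists the genes by name and uses no methylation value, though the list was drawn up with earlier results of these data known. For each gene, 200-bp bins from 5 kb upstream of the start site to the gene end were taken (GENCODE M1 annotation, mm9), with calls of both strands summed. Of these, 618 bins had at least 10 calls in every library, and the 468 with at least 2 CpGs were tested, among 4076373 autosomal bins tested in all. Each gene was also read as a promoter (1 kb either side of the start site), a last exon and the remaining body.

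Gut bacteria ferment fibre to short-chain fatty acids, chiefly acetate, propionate and butyrate. FFAR2 and FFAR3 are G protein-coupled receptors for these acids, and GPBAR1 is the membrane receptor for bile acids, many of which bacteria modify. SLC5A8 carries monocarboxylates such as butyrate into colonocytes together with sodium, and SLC16A1 (MCT1) carries them together with protons. AHR is a transcription factor switched on by ligands that include bacterial products of tryptophan, and AHRR competes with it. HDAC3 is the deacetylase of the NCOR corepressor complexes, and butyrate inhibits enzymes of its class. Promoters in CpG islands, stretches dense in CpGs, are usually free of methylation, whereas most other CpGs of the genome are methylated.

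Whole-genome bisulfite sequencing was used, in which methylated cytosines are read as C and unmethylated ones as T. All 4 groups came from the colon of offspring of Lgr5-EGFP-CreER knock-in reporter mice, a line on the C57BL/6 J background, and wild-type C57 mice. In this line the endogenous Lgr5 locus drives EGFP and an inducible Cre. The groups were EGFP-positive ISCs at postnatal day 0 (P0) and day 21 (P21), and EpCAM-positive, EGFP-negative differentiated epithelial cells at P0 and P21. No Cre-inducing agent and no other targeted allele is given for these samples. This reporter is known to be silent in some crypts, so the EGFP-negative gate can hold stem cells of those crypts. Each group had 1 library from pooled mice (litters at P0, reporter-positive offspring at P21), so there were no replicates, and age cannot be told apart from a difference between the pools. Whether the ISCs and the differentiated cells of an age shared a pool of mice is not stated. Nor is it stated whether the P0 litters held pups without the reporter, whose stem cells would be EGFP-negative. Every Fisher's test below compares 2 libraries, every Wald test compares all 4, and every interval covers counting error only. PCR copies of a molecule could not be told from separate molecules. A read that crosses several CpGs of a bin gives a call at each, and tests and intervals count these calls as separate. Where calls share a molecule, p-values are too small and intervals too narrow. A level is an average over the sorted cells, so a change within cells and a change in the make-up of the sort cannot be told apart.

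The libraries held between 1023427645 and 1188114423 calls. In the tested bins of the 8 genes the median number of calls was 57 (ISCs) and 87.5 (differentiated cells) for the P0 libraries and 60.5 and 72.5 for the P21 libraries, so that the differentiated libraries set the narrower limits. Promoter levels of marker genes were read in each library. The 8 epithelial promoters had medians of 0.875 to 2.53% over the libraries, and their highest, Krt20, lay between 51.4 and 56.1%. The 3 stem cell promoters (Lgr5, Ascl2, Axin2) lay between 1.49 and 6.95%, low in both populations, so they cannot tell ISCs from differentiated cells. The 7 blood cell promoters had medians of 76.3 to 80.8%, with a range of 9.98 to 89.0%, and 6 promoters of mesenchyme, endothelium and muscle ranged from 0.248 to 80.4%. The part of other cell types in the results below was not tested.

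The promoters of the 8 genes fell into 2 kinds. Those of Slc5a8, Slc16a1, Ahr, Ahrr and Hdac3 overlapped a CpG island, and those of the 3 receptor genes did not. Over all 8 genes, the 46 tested bins in islands had mean levels of 6.76% and 7.64% at birth (ISCs, then differentiated cells) and of 6.99% and 6.01% at P21. The 422 bins outside islands had 77.2%, 78.0%, 77.3% and 76.4% in that order. The means of the 4 libraries thus lay within 2 points of each other in either kind of bin, and the changes with age described below were local.

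Bins were then compared between P21 and P0 to ask which of them changed during maturation (mDMRs). Methylated and unmethylated calls of each bin were compared by Fisher's exact test (two-sided), and an mDMR needed a Benjamini-Hochberg adjusted p below 0.05 over all bins tested together with a change of over 15 percentage points. In ISCs, 19 of the 468 bins were mDMRs (4.06%), against 2.55% of all bins tested. They were 8 gains (1.71%, against 1.07%) and 11 losses (2.35%, against 1.48%). In differentiated cells 15 bins were mDMRs (3.21%, against 2.85%), with 3 gains (0.641%, against 0.992%) and 12 losses (2.56%, against 1.86%). The shares were above the background for losses in both populations and for gains in ISCs, and below it for gains in differentiated cells. With bins shifted by 100 bp ISCs had 5 gains among 473 bins (1.06%, against 1.07% of all bins), so their share of gains was then no longer above the background. The calls of each bin were also thinned to the lowest library, in a single random draw on which the calls kept can depend. After this thinning, differentiated cells had 5 mDMRs, all losses, and their share (1.07%, against 1.26%) was below the background. Differences of this size in counts so small were not tested.

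The mDMRs covered 26 bins in all 8 genes. Of these, 8 were called in both populations in the same direction, which is 8 of the 19 in ISCs and 8 of the 15 in differentiated cells. They were 7 losses, of which 4 lay in Hdac3, 2 in Ffar2 and 1 in Ahr, and 1 gain in Slc5a8. These are 42.1% and 53.3%, beside 36.3% and 32.5% over all bins tested, where 27417 losses and 10405 gains were shared. In 24 of the 26 bins (92.3%) the changes of the populations had the same sign, beside 81.2% of the 182371 bins called in either population over the genome. The median change over the 468 bins was 0.40 points in ISCs and -0.22 points in differentiated cells, beside medians of 0 and -0.07 points over all bins tested.

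**Figure D1:**
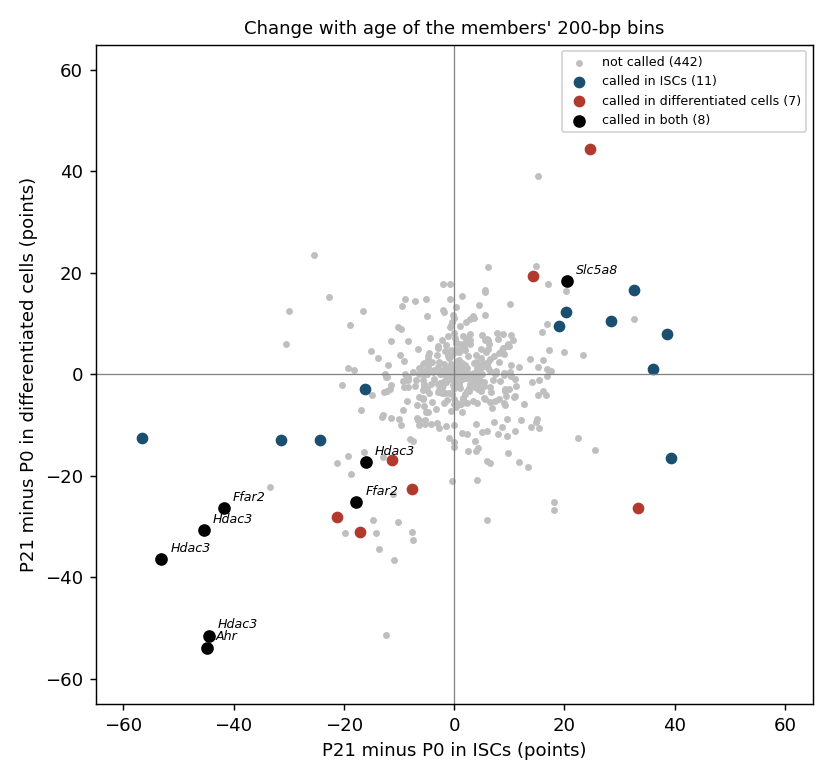
Change from P0 to P21 (percentage points) in differentiated cells against that in ISCs for the 468 tested bins of the 8 genes, colored by the population in which a bin was called. The 8 bins called in both populations lie away from the origin, 7 in the quadrant of losses and 1 in that of gains.

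Among the 22 promoters, bodies and last exons of the 8 genes, called at the same adjusted p but with a limit of 10 points, 1 changed in ISCs and 1 in differentiated cells, and both were the promoter of Ffar2. Of all protein-coding promoters, 4.31% were called in ISCs and 3.69% in differentiated cells, and of all 3 kinds of region together 4.25% and 3.86%. Gpbar1 and Ffar3 are so short that they had no body region, and their last exon overlaps the promoter window. The changes of the other regions lay between -5.17 and 7.16 points. Regions therefore say little about the local changes, which are given bin by bin below for each gene, ordered by role.

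**Figure D2:**
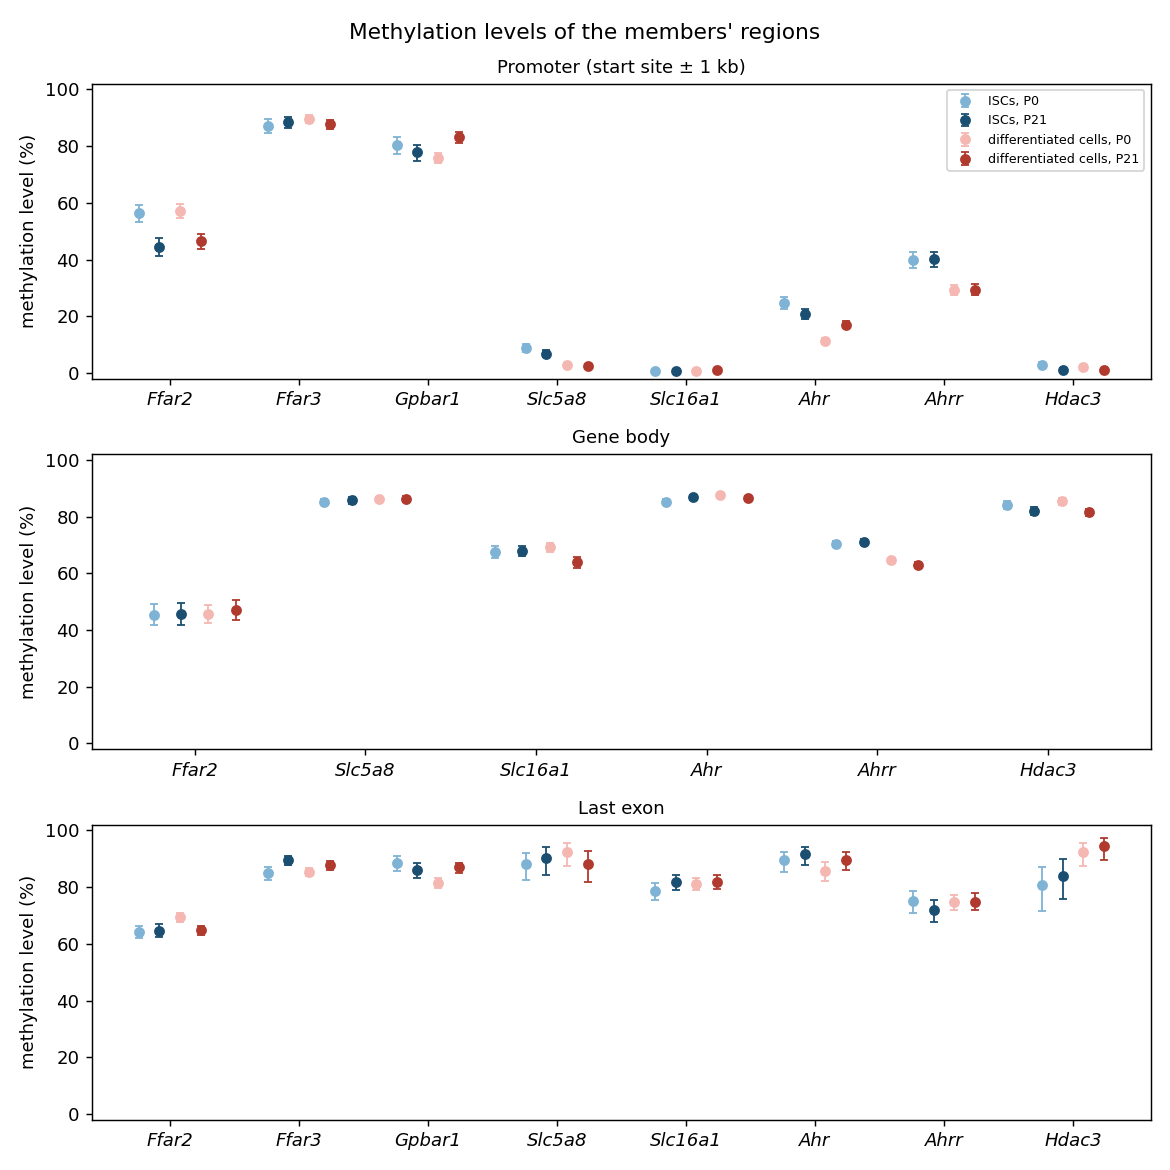
Methylation level (%) of the promoter, body and last exon of the 8 genes in the 4 libraries, with 95% Wilson intervals as error bars. Promoters of Slc16a1 and Hdac3 lie below 3% in every library, and the Ffar2 promoter is the only region whose level fell by more than 10 points in both populations.

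Ffar2 (ENSMUSG00000051314.5, chr7:31603376-31608794, minus strand, 3 exons) had the most mDMRs of the 3 receptor genes, with 1 gain and 3 losses in ISCs and 4 losses in differentiated cells among 36 tested bins. Its lowest levels lay inside the gene, at the start of the single coding exon, and methylation fell there, at the start site and upstream of the gene. The first pair of bins shown covers the start of the coding sequence in exon 3 (chr7:31605001-31605132, of which the first 3 bases are the start codon, and chr7:31604801-31605000), on the gene's strand with CpGs in capitals.
Ffar2 coding start: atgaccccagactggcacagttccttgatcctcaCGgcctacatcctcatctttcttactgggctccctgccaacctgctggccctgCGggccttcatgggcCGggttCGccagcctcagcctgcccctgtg
Ffar2 further into exon 3: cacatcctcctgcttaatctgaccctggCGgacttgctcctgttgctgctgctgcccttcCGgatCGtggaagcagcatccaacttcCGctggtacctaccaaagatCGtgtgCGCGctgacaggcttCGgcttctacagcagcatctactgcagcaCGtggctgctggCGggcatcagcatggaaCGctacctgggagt

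At the coding start (bin chr7:31605001-31605200, exon 3 with its last untranslated bases), the P0 levels were 9.52% for ISCs (126 calls) and 22.6% for differentiated cells (243 calls). The P21 levels were 1.80% for ISCs (111 calls) and 0 of 128 calls for differentiated cells. If every call were a separate molecule, 0 of 128 would allow up to 2.34%, but the calls lay at 4 CpGs with 31 to 33 each. Both P21 libraries were below both P0 libraries. The fall was an mDMR in differentiated cells (-22.6 points, 95% interval -28.3 to -17.0, Fisher's adjusted p = 4.12e-09) but not in ISCs (-7.72 points, adjusted p = 0.194). The difference between the populations' changes was -14.9 points, just under the 15-point limit.

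In the neighbouring bin (chr7:31604801-31605000, coding), which has 11 CpGs, the P0 levels were 48.5% (ISCs) and 53.5% (differentiated cells), and those at P21 were 30.7% and 28.4%. The P0 intervals (43.2 to 53.9% and 50.2 to 56.8%) did not overlap those of P21 (25.7 to 36.4% and 24.7 to 32.4%). This bin was a loss in ISCs (-17.8 points, Fisher's adjusted p = 0.000924) and in differentiated cells (-25.1 points, adjusted p = 2.65e-17). A CpG island covered 198 bp of it, and it was the only island bin of the 8 genes called between ages in either population. Over both bins, all 15 CpGs were lower at P21 in differentiated cells and 13 of 15 in ISCs. Together they formed a run of adjacent losses in differentiated cells, from 46.8% to 22.9%.

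Ffar2 also lost methylation 2706 bp upstream of the start site, outside the transcript. The bin there, with 2 CpGs, is shown because its loss was called in both populations.
Ffar2 upstream, chr7:31611401-31611600: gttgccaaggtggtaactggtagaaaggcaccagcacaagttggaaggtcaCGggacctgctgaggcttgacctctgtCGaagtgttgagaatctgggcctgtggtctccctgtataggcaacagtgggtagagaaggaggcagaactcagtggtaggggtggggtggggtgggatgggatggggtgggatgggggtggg

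In this bin the level went from 88.2% to 46.4% in ISCs with age (-41.8 points, Fisher's adjusted p = 0.00789). Differentiated cells went from 82.2% to 55.9% (-26.3 points, Fisher's adjusted p = 0.0117). Both P0 levels lay above both P21 levels, on as few as 28 calls, and the intervals of the P21 libraries overlapped (29.5 to 64.2% and 44.1 to 67.1%). After thinning the loss in differentiated cells was not called (Fisher's adjusted p = 0.174).

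At the start site itself (chr7:31608601-31608800, 5' UTR of exon 1) the level went from 62.4% to 38.1% in ISCs and from 59.1% to 46.1% in differentiated cells. All 10 CpGs were lower at P21 in both populations. The change was called in ISCs (-24.3 points, Fisher's adjusted p = 2.73e-09), and in differentiated cells it missed the 15-point limit (-12.9 points, adjusted p = 0.000280). The Ffar2 promoter fell from 56.2% to 44.5% in ISCs (-11.7 points, 95% interval -16.0 to -7.37, Fisher's adjusted p = 4.15e-06) and from 57.0% to 46.4% in differentiated cells (-10.6 points, -14.1 to -6.99, adjusted p = 1.96e-07). Without the start-site bin its change was -3.23 points in ISCs (Fisher's adjusted p = 0.501) and -8.62 points in differentiated cells (adjusted p = 0.00371), and neither was called. With equal weight for each bin the change was -6.00 and -3.51 points, so it was concentrated in the bins with most calls. The body between held 45.4 to 47.1% in the 4 libraries.

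The 1 gain in Ffar2 stood at the other end of the gene, in the 3' UTR (chr7:31603401-31603600). There the ISC level rose from 66.4% to 86.6% (20.3 points, Fisher's adjusted p = 0.000135), and in differentiated cells it was 74.8% at P0 and 87.1% at P21. The last exon as a whole went from 64.3% to 64.7% in ISCs and from 69.3% to 64.7% in differentiated cells. With bins shifted by 100 bp this gain was 12.4 points and no longer called.

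**Figure D3:**
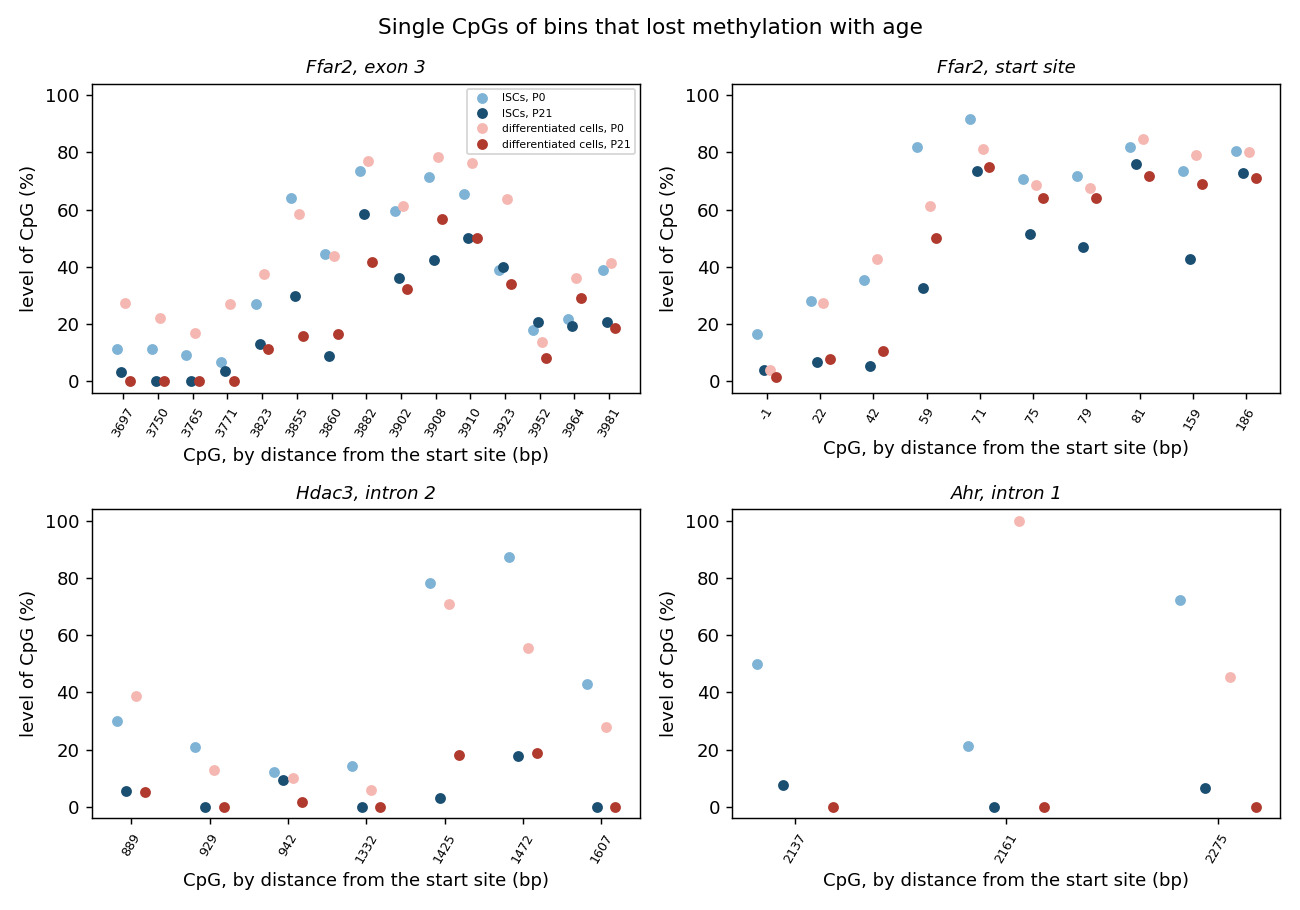
Level (%) of each CpG in bins that lost methylation with age, by distance from the start site (bp), in the 4 libraries, for exon 3 and the start-site bin of Ffar2, intron 2 of Hdac3 and intron 1 of Ahr. P21 points lie below P0 points of the same population at all 7 Hdac3 CpGs and all 10 start-site CpGs of Ffar2.

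Ffar3 (ENSMUSG00000019429.6, chr7:31639349-31641197, minus strand), the near neighbour of Ffar2 whose product prefers propionate and butyrate, had a highly methylated promoter. The level there went from 87.2% to 88.3% in ISCs, and differentiated cells had 89.5% and 87.7%. Both mDMRs among its 21 tested bins were gains. At the end of the coding sequence (chr7:31639801-31640000, exon 2) the level was 59.2% and 55.0% at P0 and 73.6% and 74.4% at P21, in ISCs and differentiated cells respectively. Both P21 levels were above both P0 levels, and the gain was called in differentiated cells (19.4 points, Fisher's adjusted p = 0.00203) but not in ISCs (14.4 points, adjusted p = 0.284). After thinning it was not called in differentiated cells either (Fisher's adjusted p = 0.136). The other gain lay 4504 bp upstream (chr7:31645601-31645800), within the neighbouring fatty acid receptor gene Ffar1, where ISCs rose from 48.1% to 80.8% (32.7 points, Fisher's adjusted p = 0.00240) and differentiated cells had 55.6% and 72.3% (adjusted p = 0.0529).

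Gpbar1 (ENSMUSG00000064272.3, chr1:74325124-74326198, plus strand, 1 exon) had 1 mDMR, a loss in ISCs, among 22 tested bins. It lay 2824 bp upstream (chr1:74322201-74322400). There the ISC level fell from 94.7% to 78.4% (-16.2 points, Fisher's adjusted p = 0.0299), and differentiated cells had 73.3% and 70.3%. ISCs at P0 stood above the other 3 libraries, so the same bin was also lower in differentiated cells than in ISCs at P0 (-21.4 points, Fisher's adjusted p = 0.00985). Shifting the bins by 100 bp ended both calls (-14.0 and -15.9 points).

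In the coding exon of Gpbar1 the changes of the populations had opposite signs. The bin is shown because it has 9 CpGs and was covered by 156 to 524 calls (chr1:74325601-74325800).
Gpbar1 exon 1: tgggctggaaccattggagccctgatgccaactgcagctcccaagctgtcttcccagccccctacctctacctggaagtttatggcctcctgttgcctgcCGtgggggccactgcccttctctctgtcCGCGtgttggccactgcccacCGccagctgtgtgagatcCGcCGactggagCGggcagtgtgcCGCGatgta
Its level went from 92.3% at birth to 80.8% at P21 in ISCs, and from 84.9% to 91.6% in differentiated cells. In ISCs 7 of the 9 CpGs were lower at P21, and in differentiated cells 7 of the 9 were higher. Neither change was called (adjusted p = 0.0891 and 0.0661), but their difference was 18.1 points (Wald test of the difference of changes in binomial counts, adjusted p = 0.0129), a call made in 0.518% of all bins tested. The promoter, which holds nearly the whole gene, had a change of -2.53 points in ISCs (Fisher's adjusted p = 0.468). In differentiated cells the promoter change was 7.16 points (Fisher's adjusted p = 5.45e-06), under the 10-point limit. With equal weight for each bin the changes were 2.05 points in ISCs and 6.60 points in differentiated cells, so the sign in ISCs turned.

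The transporter gene Slc5a8 (ENSMUSG00000020062.6, chr10:88348737-88392250, plus strand, 15 exons) had a promoter of low methylation and a methylated body. The promoter level was 8.87% and then 6.62% in ISCs, and 2.89% and then 2.62% in differentiated cells. Neither change passed the test (Fisher's adjusted p = 0.0744 and 0.739). When each bin was given equal weight the levels were 18.4% and 14.9% in ISCs and 14.7% and 12.6% in differentiated cells, so that a part of the gap between populations came from how calls were spread over bins. The body held between 85.2 and 86.2% in all 4 libraries.

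All mDMRs of Slc5a8 were gains in introns, with 2 in each population among 73 tested bins. The bin called in both populations lies in intron 2 (chr10:88355401-88355600) and was the only shared gain of the 8 genes.
Slc5a8 intron 2: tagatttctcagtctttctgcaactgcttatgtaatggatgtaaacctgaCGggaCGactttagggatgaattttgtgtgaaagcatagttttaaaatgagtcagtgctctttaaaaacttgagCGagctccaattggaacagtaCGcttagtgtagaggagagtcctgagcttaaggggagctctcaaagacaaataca
At birth the level was 68.2% (ISCs) and 68.7% (differentiated cells), and at P21 it was 88.6% and 87.2%. The populations were level with each other at both ages, and both rose, by 20.5 points in ISCs (95% interval 9.70 to 29.7, Fisher's adjusted p = 0.0167) and by 18.5 points in differentiated cells (8.83 to 27.1, adjusted p = 0.0120). With shifted bins the ISC gain was 16.5 points as a mean over the overlapping bins, none of which was called (lowest Fisher's adjusted p = 0.258). After the calls of each bin were thinned to the lowest library, neither the ISC gain (Fisher's adjusted p = 0.152) nor that of differentiated cells (adjusted p = 0.340) was called, and Slc5a8 had no mDMR left.

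In intron 9 of Slc5a8 (chr10:88373401-88373600) differentiated cells rose from 15.6% (45 calls) to 60% (50 calls), a gain of 44.4 points (Fisher's adjusted p = 0.000733). ISCs had 23.7% and 48.3% there (Fisher's adjusted p = 0.361). In intron 1 (chr10:88353801-88354000), with 2 CpGs and 28 to 43 calls, ISCs rose from 57.1% to 96.4% (Fisher's adjusted p = 0.0373), whereas differentiated cells had 88.4% at P0 and 71.9% at P21 (adjusted p = 0.446). The order of the populations was thus reversed between the ages, and the difference between their changes was -55.8 points (Wald test of binomial counts, adjusted p = 0.0252). With bins shifted by 100 bp Slc5a8 had no gain and 2 losses in ISCs, and 2 gains in differentiated cells. Both ISC losses lay in the promoter window (chr10:88348101-88348300, -20.4 points, and chr10:88349501-88349700, -30.8 points). The first of these bins was also called lower in differentiated cells than in ISCs at P0 (-25.1 points).

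Slc16a1 (ENSMUSG00000032902.1, chr3:104442591-104462385, plus strand, 5 exons) had the least methylated promoter of the 8 genes. Its level was 0.715% and then 0.684% in ISCs and 0.808% and then 0.909% in differentiated cells, on 2238 to 6068 calls. The upper end of every interval was at most 1.21%, and neither change passed the test (Fisher's adjusted p = 1 in ISCs and 0.780 in differentiated cells). The edge of this unmethylated region differed between populations. The bin 890 bp upstream of the start site (chr3:104441601-104441800) is shown for that reason.
Slc16a1 promoter edge: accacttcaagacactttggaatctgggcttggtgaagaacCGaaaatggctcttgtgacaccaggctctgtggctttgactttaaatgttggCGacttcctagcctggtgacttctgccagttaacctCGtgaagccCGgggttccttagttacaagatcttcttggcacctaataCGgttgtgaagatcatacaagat
Its level was 7.69% at birth and 3.64% at P21 in ISCs, against 26.7% and 21.2% in differentiated cells. Both ISC libraries were below both differentiated libraries. The gap was called at P21 (17.5 points, Fisher's adjusted p = 0.0305) and had an adjusted p of 0.0706 at P0 (18.97 points). Most of it came from the 2 CpGs farthest from the start site, of which the outermost had 37.5% and 62.2% at P0 and 15% and 42.2% at P21. These CpGs also held a larger share of the calls in differentiated cells, and with equal weight for each CpG the P0 gap shrank to 9.40 points and the P21 gap to 12.04 points, under the 15-point limit. With bins shifted by 100 bp the gap at P21 was 5.24 points and was not called.

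The mDMRs of Slc16a1 were 2 gains in ISCs and 2 losses in differentiated cells among 52 tested bins, and no bin was called in both. With bins shifted by 100 bp this split was not kept, with 2 gains and 1 loss in ISCs and 3 losses in differentiated cells. The ISC loss there (chr3:104458901-104459100, -20.5 points) was called in differentiated cells as well (-22.1 points). Under the main setting the gains and losses were as follows. The largest lay in the 3' UTR in exon 5 (chr3:104461801-104462000), where ISCs rose from 36.9% to 75.5% (38.6 points, Fisher's adjusted p = 0.00117) and differentiated cells had 31.2% and 39.2% (adjusted p = 0.786). ISCs at P21 stood above the other 3 libraries at all 3 CpGs, and the gap to differentiated cells at P21 was called (-36.2 points, Fisher's adjusted p = 0.0298). The difference between the changes was -30.6 points and missed the threshold (Wald test of binomial counts, adjusted p = 0.201). In intron 1 (chr3:104451801-104452000) ISCs rose from 59.4% to 87.8% (Fisher's adjusted p = 0.00406), and differentiated cells had 66.4% and 76.9%. After thinning the gain in intron 1 was not called (Fisher's adjusted p = 0.0661).

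The losses of Slc16a1 lay between its gains. Across exon 2 and intron 2 (chr3:104453401-104453600) differentiated cells fell from 84.2% to 56.0% (-28.2 points, Fisher's adjusted p = 0.00190), and ISCs had 86.2% on 29 calls and 65% on 100 calls. In intron 4 (chr3:104458401-104458600) differentiated cells fell by 16.9 points to 63.1%, and ISCs had 81.1% and 69.8% (Fisher's adjusted p = 0.140). The first of these losses was not called after thinning (Fisher's adjusted p = 0.0830). The body as a whole went from 69.1% to 63.9% in differentiated cells (Fisher's adjusted p = 0.000324) and from 67.6% to 67.9% in ISCs (adjusted p = 0.915), and with equal weight for each bin the change in differentiated cells was -1.46 points. Upstream of the promoter (chr3:104440401-104440600) ISCs had 81.8% at P0 against 97.1% in differentiated cells (15.3 points, Fisher's adjusted p = 0.0360), and 96.8% against 88.3% at P21. The populations' changes differed there by -23.9 points (Wald test of binomial counts, adjusted p = 0.0300).

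Ahr (ENSMUSG00000019256.10, chr12:36182646-36219710, minus strand) had an island promoter with methylated flanks. The promoter level went from 24.7% to 20.8% in ISCs and from 11.4% to 17.1% in differentiated cells. With equal weight for each bin the 4 levels lay between 20.4 and 22.2%, and the change in differentiated cells turned from 5.70 points to -1.83 points, so the pooled change is not read as a gain. The body held 85.3 to 87.4%.

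Near the promoter of Ahr methylation was lost in both populations. The bin lies in intron 1, 2210 bp downstream of the start site (chr12:36217401-36217600), and is shown with its 3 CpGs.
Ahr intron 1: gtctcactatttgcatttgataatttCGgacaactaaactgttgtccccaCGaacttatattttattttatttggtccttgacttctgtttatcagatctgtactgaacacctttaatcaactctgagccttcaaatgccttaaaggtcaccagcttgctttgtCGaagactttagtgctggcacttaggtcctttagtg
At birth its level was 50% for ISCs (46 calls) and 53.8% for differentiated cells (13 calls). At P21 it was 5.13% for ISCs (39 calls) and 0 of 15 calls for differentiated cells. The latter allows up to 20% if each call is a separate molecule. Both P21 libraries were below both P0 libraries, and in differentiated cells 11 of the 13 P0 calls came from 1 CpG. The loss was -44.9 points in ISCs (95% interval -59.2 to -26.7, Fisher's adjusted p = 0.000432) and -53.8 points in differentiated cells (-76.8 to -21.8, adjusted p = 0.0418). After the calls of each bin were thinned to the lowest library, neither was called (Fisher's adjusted p = 0.731 and 0.193).

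In intron 11 of Ahr, 1 bin was called in each population. At chr12:36186601-36186800 ISCs rose from 61.7% to 97.8% (36.1 points, Fisher's adjusted p = 0.001345), while differentiated cells had 89.8% and 90.9%. At chr12:36187601-36187800, with 2 CpGs and 21 to 38 calls, the changes had opposite signs: ISCs had 66.7% and then 100%, and differentiated cells fell from 100% to 73.7% (-26.3 points, Fisher's adjusted p = 0.0320). The changes there differed by -59.6 points (Wald test of binomial counts, adjusted p = 0.00240), and the P0 gap of 33.3 points was called as well (Fisher's adjusted p = 0.0361). Another bin, across exon 7 and intron 7 (chr12:36192801-36193000), had a P0 level of 57.1% for ISCs and 100% for differentiated cells (Fisher's adjusted p = 0.0459), and 82.8% and 85.2% at P21. In all 3 bins ISCs at P0 were the lowest library. Neither the 2 calls of the bin at 36187601 nor that across exon 7 were kept after shifting the bins by 100 bp or after thinning. Testing bins with 1 CpG as well also ended the call across exon 7.

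Ahrr (ENSMUSG00000021575.8, chr13:74348566-74429779, minus strand, 11 exons) had 1 gain and 1 loss among 110 tested bins in ISCs, and no mDMR in differentiated cells. The gain lay just inside the gene, in intron 1 at 478 bp from the start site (chr13:74429201-74429400), at the edge of the unmethylated part of the promoter.
Ahrr intron 1: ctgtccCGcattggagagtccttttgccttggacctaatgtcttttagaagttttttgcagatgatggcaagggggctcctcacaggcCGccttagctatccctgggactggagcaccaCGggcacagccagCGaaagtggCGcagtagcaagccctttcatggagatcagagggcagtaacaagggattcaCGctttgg
The level went from 53.9% to 73.0% in ISCs and from 55.1% to 64.6% in differentiated cells. All 6 CpGs were higher at P21 in ISCs and 5 of 6 in differentiated cells. The gain was called in ISCs (19.1 points, 95% interval 9.12 to 28.6, Fisher's adjusted p = 0.0149) and not in differentiated cells (9.54 points, adjusted p = 0.308). The promoter as a whole had 39.8% and 40.1% in ISCs and 29.3% at both ages in differentiated cells. In intron 3 (chr13:74402801-74403000) ISCs fell from 77.8% to 21.2% on 27 and 33 calls (-56.6 points, Fisher's adjusted p = 0.00193), and differentiated cells had 50% and 37.5%. Its 2 CpGs went from 95.2% to 58.3% and from 16.7% to 0% in ISCs, and the less methylated one held 6 of the 27 calls at P0 and 21 of the 33 at P21. With equal weight for each CpG the change was -26.8 points. With shifted bins this was -12.5 points and was not called.

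AHR binds DNA at a core of the letters GCGTG, which contains a CpG. The core was searched on both strands, and the longer form TNGCGTG, which contains the core, was counted within it. Ahrr is a known target of AHR and held 37 cores from 5 kb upstream to its end, 9 of them in the longer form. Its window was the longest of the 8 genes, and per kb it held 0.429 cores, within the range of the others (0.268 to 0.960). Its promoter held 5, which are shown with 26 bases each and the core in capitals. A core is common: 77.3% of the 21418 promoters held at least 1, and 26.6% the longer form.
Ahrr core 370 bp upstream, chr13:74430137-74430162: accaagacttaGCGTGttcctccttt
Ahrr core 105 bp upstream, chr13:74429872-74429897: attgaaagggcGCGTGgcaggcaggg
Ahrr core 80 bp upstream, chr13:74429847-74429872: gacaaggatgtGCGTGcgccctctgc
Ahrr core 25 bp upstream, chr13:74429792-74429817: cggggcggctcGCGTGctggggtggg
Ahrr core 572 bp downstream, chr13:74429195-74429220: gtccctccaaaGCGTGaatcccttgt

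The 3 cores within 105 bp upstream of the start site had at most 1 methylated call in any library, on 12 to 60 calls each, and the upper ends of their Wilson intervals lay between 6.02 and 24.2%. The core 370 bp upstream also had at most 1 methylated call, on only 5 to 10 calls. The core downstream, within the bin that gained methylation in ISCs, had 77.8% and then 95.2% in ISCs, and 92.7% and then 89.8% in differentiated cells. The cores of the Ahrr promoter therefore ranged from unmethylated to mostly methylated, and the intervals of the downstream core overlapped between ages in both populations. In the promoters of Slc16a1 (7 cores), Ahr (6 cores) and Hdac3 (7 cores) the cores together had at most 1.41% in any library. Those in the promoters of Ffar3 (1 core) and Gpbar1 (1 core) were mostly methylated, with 85.4 to 100% and 88 to 94.1%. The 2 cores in the Ffar2 promoter had 74.7 to 81.4% together but were unlike. The core at chr7:31609006 had 85.1 to 94.6%. The core at chr7:31609452, in the longer form, had 50% at P0 and 54.5% at P21 in ISCs. In differentiated cells that core had 26.1% and 59.1%, on 11 to 23 calls per library over both populations. The 1 core in the Slc5a8 promoter had at most 3.70%.

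Hdac3 (ENSMUSG00000024454.8, chr18:38095498-38114642, minus strand, 15 exons) had the most mDMRs of the 8 genes in ISCs, 5 losses and no gain among 66 tested bins, and 4 losses in differentiated cells. All 4 of these were also called in ISCs. Its promoter was unmethylated, with 2.71% and then 1.22% in ISCs, and 2.14% and then 1.12% in differentiated cells. Those small falls passed the test but not the 10-point limit (Fisher's adjusted p = 0.0202 and 0.00628). The promoter window takes in the intron 2 bin at 942 bp described next, so its fall is not separate from the loss there. That bin held 25 of the 37 methylated promoter calls in ISCs at P0 and 6 of the 22 at P21. In differentiated cells it held 45 of 81 and then 4 of 35.

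The edge of the unmethylated promoter region of Hdac3 moved further into the gene. In intron 2, 942 bp from the start site (chr18:38113601-38113800), the level went from 21.0% to 5% in ISCs and from 19.4% to 2.19% in differentiated cells. The adjacent pair of bins further in (chr18:38113001-38113400, intron 2) went from 51.7% (95% interval 42.7 to 60.6%) to 3.81% (1.49 to 9.39%) in ISCs, and from 40.8% (33.3 to 48.7%) to 8.41% (4.49 to 15.2%) in differentiated cells. All 7 CpGs of these 3 bins were lower at P21 in both populations, and no P0 interval of the pair overlapped one of P21.

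Each of the 3 bins was called in both populations. The bin chr18:38113001-38113200 fell by 53.1 points in ISCs (Fisher's adjusted p = 4.45e-06) and by 36.3 points in differentiated cells (adjusted p = 0.0161). The bin chr18:38113201-38113400 fell by 45.4 points (Fisher's adjusted p = 3.82e-07) and by 30.7 points (adjusted p = 0.000409). Nearest the start site, the changes were -16.01 points (Fisher's adjusted p = 0.0125) and -17.2 points (adjusted p = 1.65e-06). Further into the gene the bins at chr18:38112001-38112400 had 80.0 to 98.1% in every library. The ISC calls of these bins were kept after thinning to the lowest library, while those of differentiated cells were lost (Fisher's adjusted p = 0.0680 and 0.139 for the pair, and a change of -14.3 points for the other bin).

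In intron 3 of Hdac3 (chr18:38109601-38109800), a separate bin fell from 75.4% to 30.9% in ISCs (-44.5 points, 95% interval -58.7 to -26.4, Fisher's adjusted p = 0.000487) and from 76.5% to 25% in differentiated cells (-51.5 points, -65.9 to -31.3, adjusted p = 0.000194). Both populations were alike at either age. The fifth ISC loss lay 2458 bp upstream (chr18:38117001-38117200), within the neighbouring gene Rell2, where ISCs fell from 92.6% to 61.1% (-31.5 points, Fisher's adjusted p = 0.0195) and differentiated cells had 68.0% and 55.2%. After thinning this loss was not called (Fisher's adjusted p = 0.151). The body of Hdac3 changed by -2.26 points in ISCs (Fisher's adjusted p = 0.0662) and by -3.74 points in differentiated cells (adjusted p = 8.02e-05). It takes in the called bin of intron 3 and the adjacent pair of intron 2, so its change is not separate from theirs.

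Between populations of the same age (dDMRs, differentiated cells against ISCs), the 8 genes had fewer calls than between ages. At P0 there were 5 dDMRs among the 468 bins (1.07%, against 0.508% of all bins tested), 4 higher and 1 lower in differentiated cells, where 0.288% and 0.22% of all bins were. At P21 there were 2 (0.427%, against 0.182%), 1 higher and 1 lower (against 0.0711% and 0.111%), both at Slc16a1. No bin was a dDMR at both ages. After thinning to the lowest library, 0 of the 468 bins were dDMRs at either age (against 0.0909% of all bins at P0 and 0.0372% at P21), and with bins shifted by 100 bp the share at P0 was 0.423% (against 0.508%), below the background. Of the P0 dDMRs, 2 lay in Ahr and 1 each in Gpbar1, Slc16a1 and Ahrr. The last was in intron 3 (chr13:74409601-74409800), with 52.2% in ISCs on 23 calls and 97.4% in differentiated cells on 38 calls (45.2 points, Fisher's adjusted p = 0.0139), and it had 70.3% and 72.2% at P21. With shifted bins its gap at P0 was 19.7 points and was not called. In each of the 4 bins that were higher in differentiated cells at P0, that gap was under 3 points or reversed at P21.

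The genes around these pathways were counted from a list of 42 related genes, all of which were found in the annotation, with 121 regions. In ISCs 5 regions gained and 3 lost methylation (6.61%, against 4.25% of all regions), and in differentiated cells 4 gained and 3 lost (5.79%, against 3.86%). The median change over the 121 regions was 0.055 points in ISCs and 0.38 points in differentiated cells. None of the 18 regions of the HDAC3 complex genes and relatives was called, and 1 of 20 receptor regions was, in differentiated cells. Among the 29 regions of bile acid genes, 4 were called in ISCs and 3 in differentiated cells, among the 33 of AHR genes 2 and 1, and among the 21 of carriers 2 and 2. Among the related regions called in either population, the change differed between populations in 1, the last exon of Slc16a3, a lactate carrier gene. Such a difference was called in 1.99% of all regions, but that share was taken without this filter and is not a background for it.

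Called in the same direction in both populations were 4 of the 121 regions. The share of all regions called in this way was not counted, so these 4 have no background beside them. The body of Fgf15, the ileal hormone that reports bile acid return to the liver, rose from 37.6% to 51.3% in ISCs (Fisher's adjusted p = 7.67e-05) and from 43.1% to 54.6% in differentiated cells (adjusted p = 0.00137). The body of S1pr2, a receptor for sphingosine 1-phosphate and conjugated bile acids, rose from 46.7% to 59.4% (Fisher's adjusted p = 7.88e-13) and from 41.3% to 52.2% (adjusted p = 3.32e-16). In the body of Vdr, the vitamin D receptor, which also binds the bacterial bile acid lithocholic acid, the level fell from 75.5% to 65.2% (Fisher's adjusted p = 4.30e-93) and from 76.7% to 65.5% (adjusted p = 1.85e-171). The last exon of Arnt2, a relative of the AHR partner ARNT, rose from 62.2% to 74.6% (Fisher's adjusted p = 1.34e-05) and from 61.1% to 72.5% (adjusted p = 9.93e-08). The gains were of 11.0 to 13.7 points, and Vdr fell by 10.3 and 11.2 points.

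Hdac3, the gene with the most ISC calls, was compared with the other genes over its 12 levels (promoter, body and last exon in the 4 libraries). Of 16477 genes with all 12 levels, those at the smallest Euclidean distance were Tdrd3 (6.79 points), Mpp7 (7.06 points) and Rsph3a (7.14 points). An unmethylated promoter with a methylated body is a common profile, and the distance does not see the local losses described above.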

How the data were processed

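Sorted ISCs and differentiated cells of mouse colon at P0 and P21 were profiled by whole-genome bisulfite sequencing, 1 library per group, with groups taken from the sample labels. The authors trimmed the reads and mapped them to mm9 with Bismark, and they deposited, for each cytosine, the count of calls and how many were methylated. A deposited fraction repeats the ratio of these counts and was not used. The Bismark version is not given in the sources used here, nor is the treatment of duplicate reads. If duplicates remained, calls overstate the number of molecules and the p-values are too small. The same holds where a read crosses several CpGs of a bin.

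Positions at no CpG of the mm9 reference (0.465 to 0.850% per library) were left out, and strands were summed. Autosomal 200-bp bins were tested where they held 2 CpGs or more and every library had 10 calls or more, with a two-sided Fisher's exact test, adjusted by the Benjamini-Hochberg method over all bins. Regions were tested on summed calls, adjusted over all genes for the same kind of region. Changes in the 2 populations were compared by a Wald test with 0.5 added to each count. Levels have Wilson intervals and differences have Newcombe intervals, at 95%. The transcript with the longest coding sequence defined each gene. A CpG island was a union of 500-bp windows with at least 25 CpGs, and a bin counted as island when at least 100 bp were covered. Python 3.11.15, numpy 2.4.6, pandas 2.3.3, scipy 1.17.1 and numba 0.67.0 were used, and the tests were checked on simulated counts.

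The members and lists were chosen with earlier results of these data known. All 8 genes are named, with runs of adjacent calls (1 in Ffar2 is not reported in full here) and up to 3 single bins per gene with the largest differences between ages. The intron 4 bin of Slc16a1, the bins called between populations and the bins whose changes differed between populations were added to these. Related genes are named where a region was called in the same direction in both populations, and Slc16a3 because its changes differed. The alternatives were a minimum of 20 calls, bins with 1 CpG, limits of 30 points (bins) and 15 points (regions), no test, thinned calls, shifted bins, equal weight for each bin, exact coordinates, and other promoter bounds. For a called bin, the shifted value was the mean change of the shifted bins that overlap it, with their lowest adjusted p. Its call was kept if any of them was called in the same direction. Leaving out the start-site bin of Ffar2 and equal weight for each CpG of a bin were chosen after seeing the data.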

Additional observations from a re-analysis of the deposited data

Results flagged for a closer look

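In 4 bins of the 8 genes, the change with age differed between the populations (Wald test of that difference on methylated and unmethylated calls). The same held for 1 region of a related gene, among the related regions called in either population. These are differentiated minus ISC differences of the P21 minus P0 changes, and each compares 4 single libraries. For the bins, this Wald test was run under the main setting only, so no alternative covers these differences. In exon 1 of Gpbar1 (chr1:74325601-74325800) the difference was 18.1 points (binomial Wald test, adjusted p = 0.0129), with changes of -11.5 points in ISCs and 6.63 points in differentiated cells, on 156 to 524 calls. In intron 1 of Slc5a8 (chr10:88353801-88354000) it was -55.8 points (binomial Wald test, adjusted p = 0.0252), on 28 to 43 calls. Upstream of Slc16a1 (chr3:104440401-104440600) it was -23.9 points (binomial Wald test, adjusted p = 0.0300), on 63 to 140 calls. In intron 11 of Ahr (chr12:36187601-36187800) it was -59.6 points (binomial Wald test, adjusted p = 0.00240), on 21 to 38 calls. The Gpbar1 bin had 9 CpGs, whereas the other 3 bins had 2 CpGs each. Among all bins tested, 0.518% had such a difference.

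The last exon of Slc16a3, which encodes the lactate exporter MCT4, rose from 50.7% to 61.4% in ISCs (Fisher's adjusted p = 0.00201) and fell from 60.3% to 49.8% in differentiated cells (adjusted p = 7.98e-06). The difference between the changes was -21.2 points (binomial Wald test, adjusted p = 2.18e-07), a call made in 1.99% of all regions. Among the regions of the 42 related genes called in either population, it was the only one with a called difference.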

How the results depend on the processing

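No paired analysis was possible because each group had 1 library. No alternative reversed the direction of a called bin of the 8 genes or of the Ffar2 promoter, and regions of related genes were not run under alternatives. Counts of mDMRs in the 8 genes moved most with the rule for a call. With more than 30 points, 11 bins were called in ISCs, 6 in differentiated cells, 3 between populations at P0 and 1 at P21 (2.35, 1.28, 0.641 and 0.214%, against 1.22, 1.06, 0.183 and 0.0728% of all bins). With 15 points and no test, the counts were 64, 57, 48 and 36 (13.7, 12.2, 10.3 and 7.69%, against 13.5, 12, 10.6 and 9.47%), so these shares were near or below the background. After thinning to the lowest library, 5 bins were called in differentiated cells (1.07%, against 1.26%, below the background), and 0 bins at P0 and 0 at P21 between populations. ISCs kept 14 of their 19 calls there, and their gains went from 8 to 5 of 468 bins (1.07%, against 0.644% of all bins). The 10 calls that differentiated cells lost were 3 in Hdac3, 2 each in Ahr and Slc5a8, and 1 each in Ffar2, Ffar3 and Slc16a1, and the 5 that ISCs lost were 2 in Slc5a8 and 1 each in Slc16a1, Ahr and Hdac3. With bins shifted by 100 bp, ISCs kept 14 of 19 calls and differentiated cells 14 of 15, while 2 bins were called between populations at P0 and 1 at P21. A minimum of 20 calls and the inclusion of bins with 1 CpG left each of the 4 counts within 1.5 times its value. With a limit of 15 points, 0 regions were called in ISCs and 0 in differentiated cells. Equal weight for each CpG, chosen after seeing the data, left the 19 ISC and 15 differentiated changes over 15 points in the same direction, and moved 1, in intron 3 of Ahrr, by more than its interval. It took 1 of the 5 P0 gaps and 1 of the 2 P21 gaps between populations, both at Slc16a1, under 15 points. Equal weight for each bin moved 13 of 44 region changes by more than their counting error. Depth limits the small bins most, since called bins had as few as 13 calls in a library.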
